A study of Monodelphis domestica with 9 samples.

Results

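Many genes can be transcribed from more than a single start site, and the start site that is used sets the first exon of the RNA and sometimes the first residues of the protein. In the table analysed here, transcripts of a gene that begin at the same site were joined into a transcription start site (TSS) group, and each group had its own expression value. The genes described here are those with a gene symbol and at least 2 TSS groups that Cuffdiff judged well enough covered to test between conditions q2 and q1 (status OK). There were 2759 such genes of 22725 in the table, or 19.4% of the 14223 genes with a symbol. They held 8835 of its 37421 TSS groups, 6262 of them of status OK. Members with 2 groups of this status numbered 2201, 460 had 3, 77 had 4 and 21 had 5 or more.

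RNA came from gray short-tailed opossums (Monodelphis domestica), with 3 pups at each of postnatal days 16, 18 and 20 (P16, P18 and P20) and no treatment named in the labels. Meckel's cartilage (MC) is the rod of cartilage that joins the embryonic jaw to the malleus of the middle ear, and in mammals it breaks down so that ear and jaw part. Tissue was taken by laser capture where MC meets the malleus, with little of the perichondrium around it, and the small amount of RNA was amplified before sequencing. The study asked which genes change as the connection is lost. Its conditions bear the codes q1, q2 and q3. No source used here links a code to an age, and the codes are kept as they stand.

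Every value is a condition mean in FPKM, that is, sequenced fragments scaled for transcript length and library size. No value of a single pup was in the table. The spread between pups, the depth of each library and any error beside a mean are therefore unknown, and no difference of share described here was tested. For each gene the share of a TSS group was its FPKM divided by the summed FPKM of all listed groups of the gene, so a factor common to all values of a condition cancels, whereas the weight of a single library in the mean does not. The shift of a gene between 2 conditions was taken as the sum of the absolute differences of its shares divided by 2, in percentage points. It runs from 0, where all groups kept their shares, to 100, where none of the RNA came from the same group. A gene was measured in a comparison where its summed FPKM was at least 1 in both conditions. The start sites are those of transcript models, and positions of the sites within a gene were not in the table.

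The rule selected more strongly expressed genes. The members' median summed FPKM was 7.50 in q2 and 4.71 in q1, against 2.58 in q2 and 1.94 in q1 for the 5253 named genes with 1 group of status OK. The span of the locus was close to equal, at a median of 57.4 kb for members and 55.4 kb for the others. The lowest second group that still counted belonged to LAG3, an inhibitory receptor of immune cells, and had 1.10 FPKM in its higher condition. Outside the rule, 463 named genes had 1 group of status OK and another of at least 0.9 FPKM that was not tested, up to 10.1 FPKM for the small RNA Vault. Of the members, 10 had a second group under 1.1 FPKM.

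The symbol was not always the same as 1 transcription unit. The TSS groups of 12 members lay at separate places, and all but LDHA, a lactate dehydrogenase subunit, were small non-coding RNAs: U1, U2, U4, U6, U6atac, 7SK, 5S_rRNA, SNORA2, SNORA23, SNORA63 and SNORA74. For 417 members the groups carried 2 or more assembled gene IDs, and for 848 members (30.7%) the locus carried another symbol as well. A shared locus is flagged below for some genes only. Others with such a locus include CAP1, CLASP1, COX17, RHOC, DGCR8, NAV1, LIMD2, PKIG, GSK3B, AXIN2, SOX6, MEF2C and BMP2. Values of q3 were listed in full for 2072 members (75.1%), and the rest were described in q2 and q1 only.

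Between q3 and q1, 2031 members were measured and the median shift was 15.2 points. A shift of at least 20 points, a fixed size and not a test, was reached by 812 of them (40%). In q2 against q1 it was reached by 984 of 2723 (36.1%), with a median of 14.3 points. For q3 against q2 it was reached by 680 of 2050 (33.2%), with a median of 13.3 points. The 3 comparisons share conditions and are not independent. Among all genes of the table with 2 or more listed groups the corresponding percentages were 40.8, 33.5 and 34.8, so the members as a whole lay close to that background. For 516 unnamed genes, known by an Ensembl ID only, with 2 or more groups of status OK, they were 43.8, 37.7 and 34.

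Large and small shifts were both common. At least 50 points separated the conditions in 119 members for q3 against q1, in 115 for q2 against q1 and in 62 for q3 against q2. Fewer than 5 points separated them in 400 members (19.7%), 564 members (20.7%) and 427 members (20.8%) of the same comparisons. The limit of 20 points did not fall in a gap, since 163, 239 and 193 members lay between 18 and 22 points.

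The group with the largest share, here called the leading group, differed in 588 of 2031 members (29%) for q3 against q1. It differed in 789 of 2723 (29%) for q2 against q1 and in 526 of 2050 (25.7%) for q3 against q2. Among all genes with 2 or more listed groups, 27.2, 23.5 and 24.2% differed in these comparisons. For 127 of the 588 the shift was under 20 points, so that a small difference was enough to change the order of groups that were close. Among the 2027 members with at least 1 FPKM in all 3 conditions, 1216 (60%) had the same leading group throughout. In 295 the leading group of q1 stood alone, in 241 that of q3 and in 223 that of q2, and in 52 each condition had another one.

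Shifts were smaller where expression was higher. For q3 against q1, the percentage of members with at least 20 points was 54.1 below 3 FPKM, 53.6 between 3 and 10 FPKM, 34.8 between 10 and 30 FPKM, 13.1 between 30 and 100 FPKM and 3.97 at 100 FPKM or more. The median shift in the same classes was 24.7, 22.1, 14.5, 7.92 and 3.09 points. The other comparisons had the same order, with 61 and 51.4% in the lowest class and 3.51 and 3.09% in the highest for q2 against q1 and q3 against q2. The part of counting error in the shifts of weakly expressed genes was not tested, because neither counts nor single pups were available here. Apart from genes named from lists, those named below for a large shift were therefore taken at 10 FPKM or more in both conditions compared. Only 61 of 479 such members (12.7%) reached 20 points for q3 against q1, 62 of 629 (9.86%) for q2 against q1 and 123 of 800 (15.4%) for q3 against q2.

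**Figure D1:**
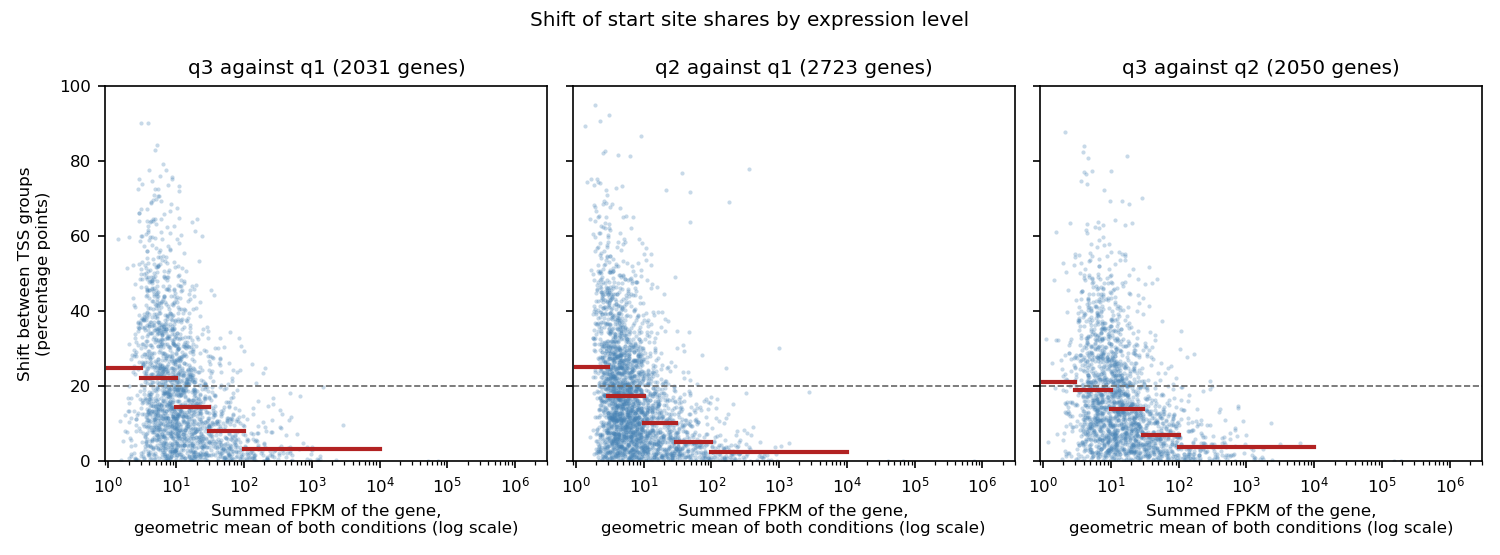
Each point is a member gene, with the geometric mean of its summed FPKM in the 2 conditions on the x axis (log scale) and its shift in percentage points on the y axis, for q3 against q1, q2 against q1 and q3 against q2. The dashed line marks 20 points and the red bars mark the median of each expression class, which for q3 against q1 was 24.7 points in the lowest class and 3.09 points in the highest.

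Among the members, RNA was concentrated in fewer start sites in q3. The rule asked for at least 2 groups of status OK in q2 against q1 and made no such demand on q3. That choice can by itself give such a difference, and its part was not tested. The median share of the leading group was 64.4% in q1 and q2 and 68.5% in q3 over the 2027 members measured in all 3. A single group held at least 10% of the RNA in 182 members (8.98%) in q1, 141 (6.96%) in q2 and 301 (14.8%) in q3. The mean number of groups with at least 10% was 2.17, 2.19 and 2.06 in the same order. The median summed FPKM of these genes was 4.83, 7.74 and 20.6 in q1, q2 and q3. In 1925 of the 2027 (95%) the sum was higher in q3 than in q1. Expression level, condition and the choice of members by q2 and q1 thus went together, and their parts in the concentration cannot be told apart.

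Against this general difference in level, some start sites were lower in q3. Of 3573 groups of status OK with at least 1 FPKM in q1, 523 (14.6%) had a lower FPKM in q3. For 361 of them the summed FPKM of the gene was higher in q3, so that groups of the same gene differed in opposite directions. These 361 groups belonged to 331 genes, and in 157 of these genes such a group had been the leading one in q1. The groups were taken by their level in q1, which favours a lower value in q3. A count in the reverse direction was not made, so these numbers describe the groups only. Among the 811 members of this set with a shift of at least 20 points for q3 against q1, the share in q2 lay between those of q1 and q3 in 569 (70.2%), read on the group whose share differed most. Genes and groups were chosen here for distant shares in q1 and q3, which favours a q2 share between them. The count therefore does not show a gradual course.

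The largest shift of q3 against q1 at 10 FPKM or more was that of SNORA13, a small nucleolar RNA of the H/ACA class, which guide pseudouridylation of other RNAs. Its locus lay at chr6:852724-854449 in the table's coordinates, for which no source used here names a genome build. Group TSS428941 had 14.7 FPKM in q1, 2.78 FPKM in q2 and 0.938 FPKM in q3. Group TSS428942 had 6.46 FPKM in q1, 9.28 FPKM in q2 and 18.4 FPKM in q3. The sum of both was similar in q3 and q1, at 19.3 and 21.1 FPKM, while TSS428942 held 30.6% in q1, 77.0% in q2 and 95.2% in q3. The shift was 64.6 points with little difference in the summed FPKM. Of the 2027 members measured in all 3 conditions, 95% had a higher sum in q3 than in q1. Whether both groups are start sites of the small RNA itself or of other RNA at the locus was not tested.

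EIF4E2 encodes a cap-binding protein related to the translation factor eIF4E that acts mostly in repressing translation, and its locus was given as chr2:537392178-537415122. TSS127724 had 12.2 FPKM in q1, 6.35 FPKM in q2 and 21.3 FPKM in q3, and TSS127725 had 4.75, 16.7 and 55.1 FPKM in the same order. TSS127725 held 27.9% in q1, 72.5% in q2 and 72.1% in q3. The difference of 44.2 points for q3 against q1 was thus already present in q2. COX17, a copper chaperone for cytochrome c oxidase, had the same form, with TSS302789 at 27.2% in q1, 61.5% in q2 and 60.1% in q3. So did C1orf43, whose group TSS128823 held 23.3% in q1, 60.7% in q2 and 56.2% in q3. Across these 3 genes q1 stood apart and the other conditions lay within 5 points of each other.

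In USF2, a transcription factor of the helix-loop-helix class that binds E-box motifs, q3 stood apart. TSS301751 led with 67.6% in q1 and 80.5% in q2, and held 33.0% in q3. It had 10.6 FPKM in q1, 23.8 FPKM in q2 and 17.8 FPKM in q3, whereas TSS301750 had 5.06, 5.78 and 36.3 FPKM. RSPO3, a secreted R-spondin that strengthens Wnt signalling, also stood apart in q3. Its group TSS126893 held 54.2% in q1, 44.9% in q2 and 81.7% in q3. TSS126894 held 29.1%, 45.7% and 8.03%. Its sum was 10.5 FPKM in q1, 7.94 FPKM in q2 and 14.8 FPKM in q3, and both TSS126894, at 1.19 FPKM in q3 and 3.07 FPKM in q1, and TSS126892, at 0.538 FPKM in q3 and 1.41 FPKM in q1, were lower in q3.

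NPR2 is the receptor for C-type natriuretic peptide, which promotes growth of cartilage, and it had 4 groups of status OK and a sum of 10.03 FPKM in q1, 10.7 FPKM in q2 and 50.7 FPKM in q3. TSS429606 held 59.8% in q1, 30.4% in q2 and 26.1% in q3. TSS429607 held 29.5%, 43.0% and 54.2%, and became the leading group from q2 on. A further group that was not tested between q2 and q1, TSS429610, held 4.88% in q1, 1.75% in q2 and 16.6% in q3. The shift of NPR2 was 38.6 points for q3 against q1. RHOC, a small GTPase that organizes actin, had a near absence of TSS130672 in q2, with 4.44 FPKM in q1, 0.00501 FPKM in q2 and 5.27 FPKM in q3. Its share was 43.2%, 0.0300% and 9.50%, and TSS130673 led in q2 with 74.2% and in q3 with 63.6%.

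The other members with the largest shifts of q3 against q1 were NAV1, LRRC45, C1orf123 and DGCR8. NAV1, a microtubule-associated protein of growing axons, had its groups under 4 assembled gene IDs, and its group TSS128323 held 39.0% in q1, 9.04% in q2 and 0.435% in q3. DGCR8, the RNA-binding partner of the microRNA-processing enzyme Drosha, had a leading group in all conditions, TSS213243, with 62.9% in q1, 84.1% in q2 and 92.1% in q3. Its other groups of status OK had a lower FPKM in q3 than in q1, with TSS213242 at 2.69 FPKM in q1, 1.43 FPKM in q2 and 0.932 FPKM in q3, while TSS213241 was at 1.47, 0.439 and 0.832 FPKM. A further group that was not tested, TSS213244, was near 0 in q1 and q2 and had 1.40 FPKM in q3. LRRC45, a centrosome linker protein, carried 2 gene IDs. Its group TSS129290 held 33.5% in q1, 9.43% in q2 and 5.11% in q3. The shift of LRRC45 was 34.3 points.

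**Figure D2:**
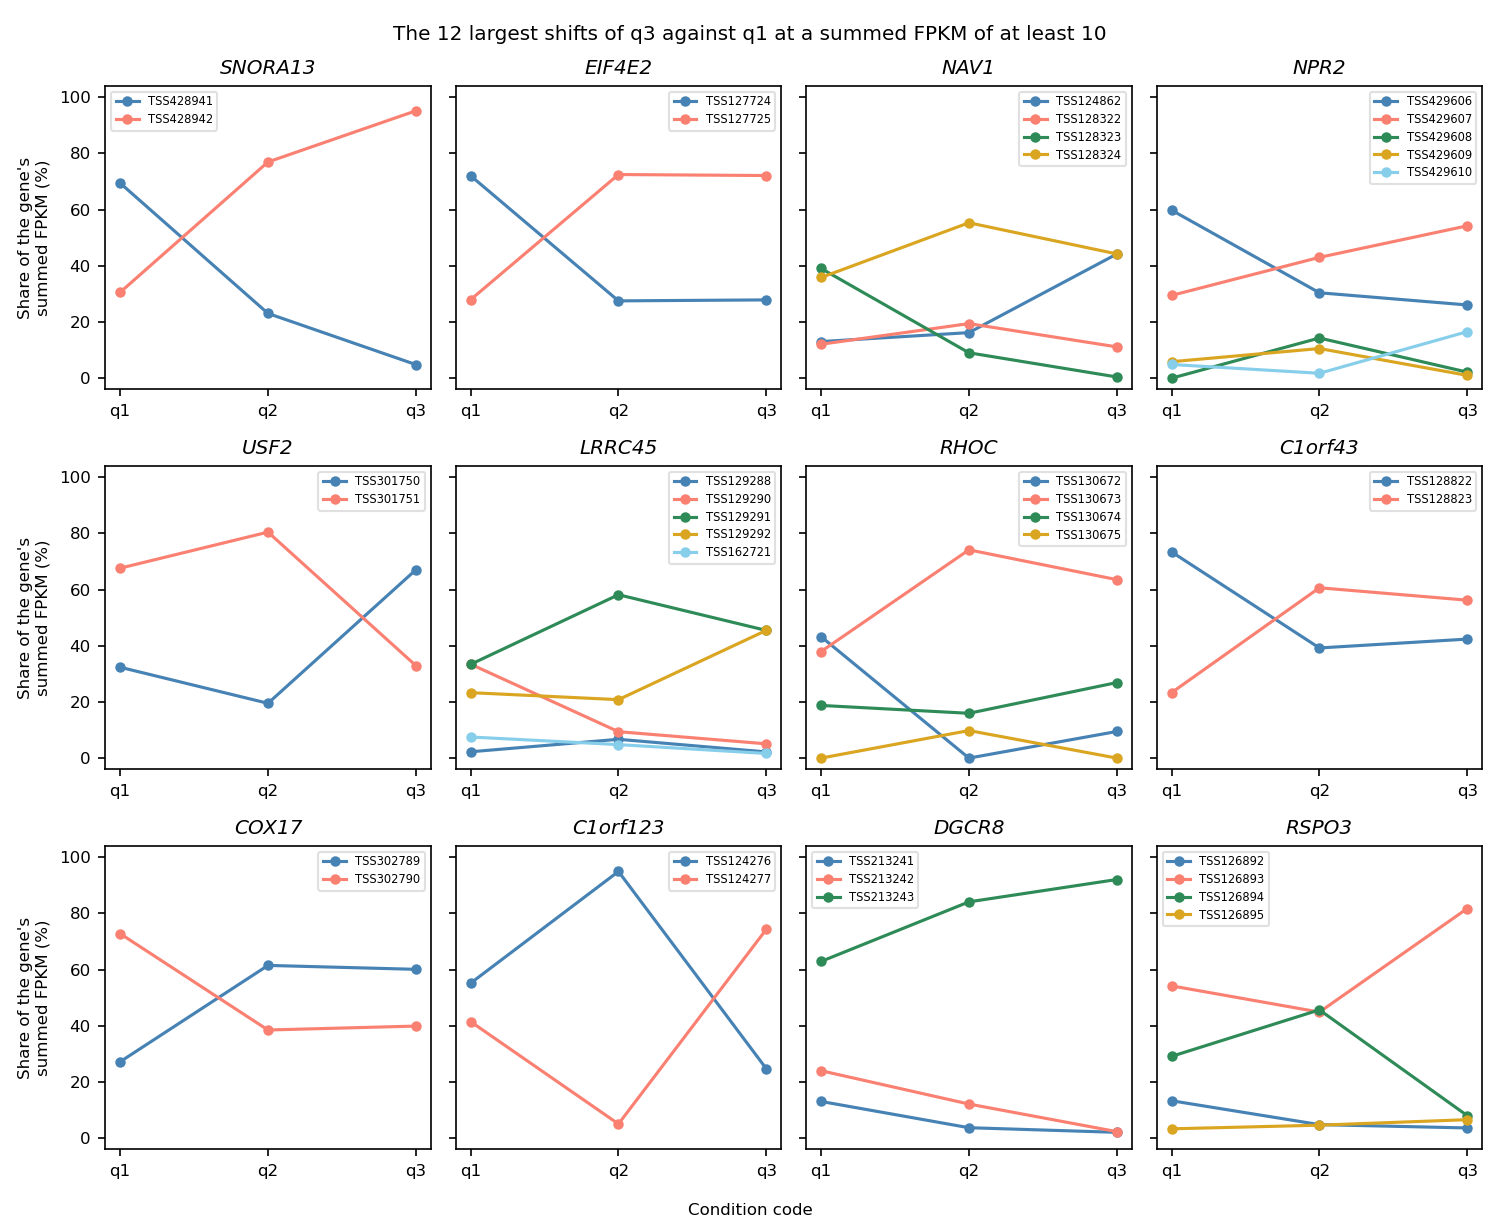
Share of the gene's summed FPKM (%, y axis) of each TSS group in q1, q2 and q3 (x axis) for the 12 members with the largest shift of q3 against q1 at 10 FPKM or more, with groups under 5% in all conditions left out. The lines of EIF4E2, C1orf43 and COX17 cross before q2 and then run level, and those of USF2 cross between q2 and q3.

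For q2 against q1, the largest shift at 10 FPKM or more belonged to PFDN1, a subunit of the prefoldin chaperone, with 2 gene IDs. TSS6587 had 9.75 FPKM in q2, against 4.02 FPKM in q1, and TSS1986 had 0.499 FPKM in q2, against 6.04 FPKM in q1. The share of TSS6587 was 95.1% in q2, against 39.96% in q1, and the sum was close to equal, at 10.2 FPKM in q2 and 10.1 FPKM in q1. P3H3, a member of the prolyl 3-hydroxylase family that modifies collagens, had 61.7% of its RNA from TSS524310 in q2, against 8.13% in q1. MRPL3, a protein of the mitochondrial ribosome, had 84.2% from TSS525214 in q2, against 44.6% in q1. The last 3 genes were not listed in full in q3. C2orf40 was, and its group TSS474651 held 26.1% in q1, 73.4% in q2 and 50.5% in q3, so the q3 share lay between the others.

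KPNA3, an importin that carries proteins into the nucleus, had the largest shift of q3 against q2, at 81.4 points. Its group TSS301079 had 0.957 FPKM in q1, 1.30 FPKM in q2 and 24.2 FPKM in q3, and the share was 21.0%, 11.6% and 93.0%. TSS301080 had 1.78 FPKM in q1, 5.09 FPKM in q2 and 0.782 FPKM in q3. These groups carried 2 gene IDs, and the locus carried another symbol, so reads of a neighbour could have been counted.

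C1orf123 and FCER1G differed in both steps and in opposite directions. TSS124277 of C1orf123 held 41.5% in q1, 5.07% in q2 and 74.3% in q3, a shift of 70.2 points for q3 against q2. FCER1G encodes the gamma chain shared by Fc receptors and other receptors of myeloid cells and clasts. TSS127153 of this gene had 0.0268 FPKM in q1, 8.13 FPKM in q2 and 0.000345 FPKM in q3, and so it held 62.9% in q2 and less than 1% in the other conditions. The locus of FCER1G carried another symbol. PKIG, an inhibitor of protein kinase A, had a leading group in q2, TSS3175, with 78.1%, against 22.2% in q1 and 24.4% in q3, and its sum in q1 was only 1.66 FPKM.

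TMBIM1, a membrane protein of lysosomes and endosomes, had TSS474955 at 5.01 FPKM in q1, 0.0177 FPKM in q2 and 18.9 FPKM in q3. Its share was 86.9%, 0.123% and 43.7%, while TSS474953 led in q2 with 65.1%. DYNLL2, a dynein light chain, likewise had TSS128726 at 2.19 FPKM in q1, near 0 in q2 and 3.44 FPKM in q3. TSS128727 held 3.49% of its RNA in q1, 58.7% in q2 and 27.4% in q3. A group of DYNLL2 that was not tested, TSS128724, held 36.4% in q3, and over groups of status OK only its shift of q3 against q2 was 23.3 points in place of 51.2 points. LIMD2, a small LIM-domain protein, had TSS129158 at 22.2% in q1, 52.1% in q2 and 0.316% in q3. Each of these genes had a group with several FPKM in at least 1 condition that was listed near 0 in another. How many members had such a group was not counted. Over all members, 3 groups of status OK were listed at 0 in q1, 16 in q2 and 10 in q3. Below 0.1 FPKM were 176 (2.81%), 75 (1.20%) and 108 (2.24%) of the groups of status OK listed in these conditions.

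At the other end, 69 members had 10 FPKM or more in q3 and q1 and at least 3 groups with 10% or more in q1. The smallest shifts of q3 against q1 among them were those of NOP58, NDUFB10, RPS9, MRC2 and SNRPD2, between 1.42 and 2.71 points. RPS9, a protein of the small ribosomal subunit, had TSS304890 at 125, 232 and 400 FPKM in q1, q2 and q3 and TSS304892 at 115, 187 and 392 FPKM. The share of TSS304890 was 44.2%, 47.3% and 43.2%. NDUFB10, a subunit of respiratory complex I, had 3 groups of near equal share in q3 (31.2%, 34.2% and 34.6%) and in q1 (32.6%, 32.7% and 34.7%). In q2, however, TSS428201 held 48.6% and the shift against q1 was 13.8 points. SNRPD2, a core protein of the spliceosome, was similar, with TSS301920 at 39.4% in q1, 26.9% in q2 and 39.9% in q3. A small shift of q3 against q1 therefore did not mean that q2 was the same.

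**Figure D3:**
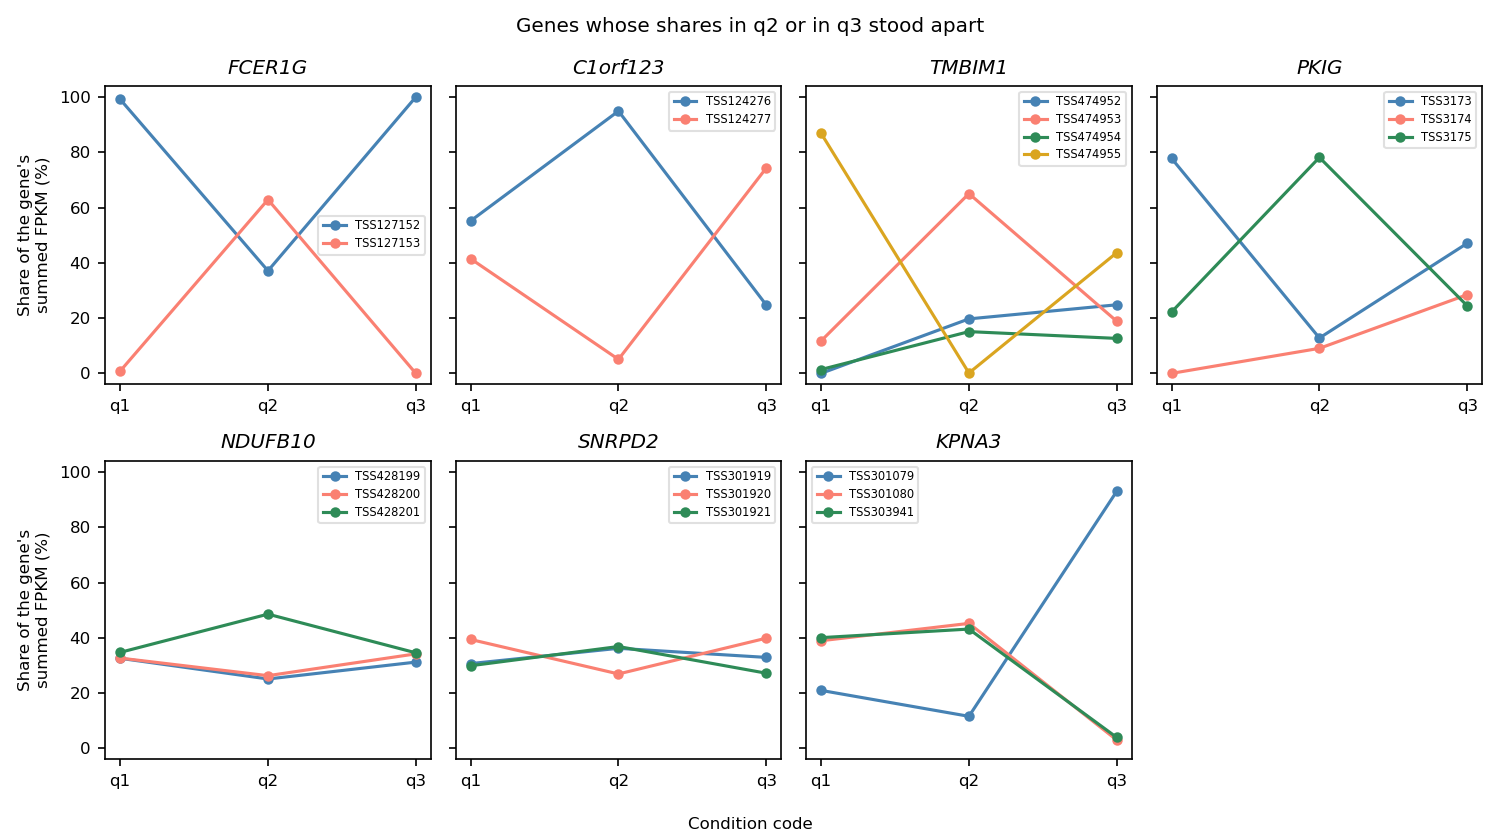
Share of the gene's summed FPKM (%, y axis) of each TSS group in q1, q2 and q3 (x axis) for 5 members with large shifts of q3 against q2 (FCER1G, C1orf123, TMBIM1, PKIG and KPNA3) and 2 with small shifts of q3 against q1 (NDUFB10 and SNRPD2). In FCER1G the minor group holds 62.9% in q2 alone, and in KPNA3 a single group holds 93.0% in q3.

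The most groups of status OK were found in TBC1D22B with 8 and in NBEA and TRPS1 with 7 each. TRPS1, a zinc-finger repressor of chondrocyte differentiation, used its groups in parallel. TSS283659 held 24.6% in q1, 24.7% in q2 and 30.6% in q3, TSS212135 held 30.1%, 26.3% and 19.5%, and TSS283660 held 12.3%, 15.1% and 19.0%. The shift of TRPS1 was 17.4 points for q3 against q1. NBEA, a scaffold protein of membrane traffic, had a leading group, TSS303870, with 24.2% in q1, 19.1% in q2 and 39.4% in q3. Its groups carried 9 gene IDs.

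In TBC1D22B the shares were fixed by a group of very high value. TSS129873 was at 204341 FPKM in q3, and this group held nearly all of the summed FPKM in every condition, so that the shift was 0.041 points. PDZD4 had such a group as well, TSS574294, with 1927870 FPKM in q2. Shares of the other groups of these genes could not be read, and their shifts near 0 were not counted as signs of a stable start site.

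Gene lists were drawn up by tissue and function, and their members are given by counts and medians. The most shifted member of each list needed only 1 FPKM in both conditions, not 10 FPKM. The values over all members to set beside them, for q3 against q1, are 40% with at least 20 points and a median of 15.2 points, and by expression class the percentages given above. Single genes described from the lists beyond the most abundant and the most shifted were chosen after their values were seen, namely ANK3, DST, MYC, COL9A1, COL9A3, HAPLN1, COL1A1, DMP1, SPARC, BGLAP, ATP6V0D2, CAP1, TPM4, CDH5, PECAM1, GSK3B, BCL2L11, BMP2, COMP, MMP13, NFATC1, TGFB1 and TNFSF11. Of 22 genes of cartilage matrix and chondrocyte factors, 19 were in the table, 10 were members and 6 could be measured for q3 against q1. SOX6 alone reached 20 points, and the median was 11.3 points, against 15.2 points over all members. In the class of 10 to 30 FPKM this was 1 of 2, beside 34.8% of members in that class. It was 0 of 2 at 30 to 100 FPKM, beside 13.1%, and 0 of 2 at 100 FPKM or more, beside 3.97%. With so few genes this was not read as a difference. COL2A1, the defining collagen of cartilage, was listed at 0 in q1 and q2 and could not serve as a check of the tissue.

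The collagen IX genes encode chains of a collagen that coats the collagen II fibril, and COL9A1 is known to have an alternative promoter in human and mouse. COL9A1 had TSS130075 at 93.6 FPKM in q1, 31.2 FPKM in q2 and 59.8 FPKM in q3. Its other group, TSS130076, had 18.6 FPKM in q1, 2.21 FPKM in q2 and 1.86 FPKM in q3, and its share was 16.6%, 6.61% and 3.02%. The log2 ratio of q3 over q1 was -3.32 for this minor group and -0.65 for the major group, so both were lower in q3 and the minor group by more. COL9A2, with 2 gene IDs, had a group with the same pattern, TSS305102, which held 17.4% in q1, 8.54% in q2 and 6.49% in q3. TSS302300 led COL9A2 in all conditions, with 52.8%, 65.7% and 64.4%. COL9A3 could be compared in q2 against q1 only, where TSS7586 held 31.3% in q2, against 47.7% in q1.

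SOX6, a partner of SOX9 in chondrocytes, had 3 groups of status OK. TSS373516 had 4.21 FPKM in q1, 2.09 FPKM in q2 and 4.18 FPKM in q3, and its share was 52.8%, 26.7% and 29.8%. TSS373514 led in q2 with 42.7% and TSS373515 led in q3 with 36.9%, so each condition had another leading group. The sum was only 7.96 FPKM in q1. HAPLN1, the link protein that holds aggrecan on hyaluronan, and COMP, a matrix protein of cartilage and tendon, reached 20 points for q3 against q2, at 25.3 and 20.8 points. TSS208917 of HAPLN1 held 15.4% in q1, 31.4% in q2 and 9.01% in q3.

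Among 14 genes of hypertrophy and mineralization, 6 were measured for q3 against q1, with a median of 7.72 points. In the class of 30 to 100 FPKM 1 of 2 reached 20 points, beside 13.1% of members in that class. At 10 to 30 FPKM it was 0 of 2, beside 34.8%, and at 100 FPKM or more 0 of 2, beside 3.97%. MEF2C, a transcription factor that drives chondrocyte hypertrophy, was the only one with at least 20 points, at 23.9. Its group TSS208885 had 0.529 FPKM in q1, 4.01 FPKM in q2 and 21.4 FPKM in q3, and its share was 3.57%, 15.4% and 27.5%. The leading group of MEF2C, TSS208886, was the same in all conditions, at 79.3%, 61.2% and 65.3%. PTH1R, the receptor for parathyroid hormone and its related peptide, is a gene with known alternative promoters in human and mouse. TSS428421 led it with 74.1% in q1, 70.2% in q2 and 60.9% in q3, while TSS430079 held 19.8%, 25.0% and 34.1%. MMP13, a collagenase of late hypertrophic cartilage and of bone, had TSS303618 at 48.2% in q1, 58.7% in q2 and 41.1% in q3, whereas TSS303620 had 45.2%, 38.4% and 43.1%, so these groups were close in q1 and q3 and apart in q2. IBSP, the bone sialoprotein, had 1793 FPKM in q3 and 123 FPKM in q1, and its shift was only 2.56 points.

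The bone matrix list had 7 members measured for q3 against q1, of 18 listed, and a median shift of 4.30 points. In the class of 30 to 100 FPKM 1 of 3 reached 20 points, beside 13.1% of members in that class. At 100 FPKM or more it was 0 of 4, beside 3.97%. PHEX, an endopeptidase of osteoblasts and osteocytes that takes part in phosphate control, was the only one past 20 points, at 23.7. TSS302620 of PHEX had 7.28 FPKM in q1, 14.1 FPKM in q2 and 3.32 FPKM in q3, while the sum of the gene was 28.8, 87.9 and 213 FPKM. Its share was 25.3%, 16.1% and 1.56%, and TSS302621 held 45.9%, 51.2% and 67.0%. COL1A1, a chain of collagen I, was just under the limit for q3 against q1 at 19.9 points. TSS129080 had 255 FPKM in q1, 158 FPKM in q2 and 696 FPKM in q3, and TSS129081 had 379, 1400 and 2725 FPKM. TSS129080 held 40.2% in q1, 10.2% in q2 and 20.4% in q3, so q2 was the farthest from q1, at 30.1 points. It was 1 of only 4 members at 100 FPKM or more with at least 20 points for q2 against q1.

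DMP1, an acidic protein of osteocytes and mineralized matrix, also stood apart in q2. TSS374251 held 27.9% in q1, 10.8% in q2 and 32.2% in q3. SPARC, a collagen-binding protein of bone, had 72.8% from TSS6684 in q2, against 54.3% in q1, and was not listed in full in q3. BGLAP, which encodes osteocalcin, had a shift of 0.562 points for q3 against q1 with a sum of 3980 FPKM in q3 and 441 FPKM in q1. TNFSF11, the RANK ligand that drives clast formation, was below 1 FPKM in q1 and could be measured only in q3 against q2, where TSS474881 held 75.6% in q3, against 47.8% in q2.

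Clasts are the multinucleated cells that resorb bone and calcified cartilage. Of 21 listed clast genes 8 were members, all measured, and 2 reached 20 points for q3 against q1, with a median of 7.22 points. In the class of 3 to 10 FPKM they were 1 of 2, beside 53.6% of members in that class. They were 1 of 4 at 10 to 30 FPKM, beside 34.8%, and 0 of 2 at 100 FPKM or more, beside 3.97%. CTSK, the collagen-degrading cathepsin of clasts, had TSS130799 at 438 FPKM in q1, 2054 FPKM in q2 and 9600 FPKM in q3. TSS130798 had 233, 878 and 3215 FPKM, and the share of TSS130799 was 65.3%, 70.0% and 74.9%. The groups of CTSK were all higher in q3 than in q1, with a shift of 9.60 points. MMP9, a gelatinase of clasts, had TSS2749 at 132 FPKM in q1, 236 FPKM in q2 and 2048 FPKM in q3, and TSS2750 at 62.0, 123 and 766 FPKM. The share of TSS2749 was 67.9%, 65.7% and 72.8%. Of the other genes that the paper names, TGFBR2, WISP1 and ACP5 each had only 1 listed TSS group and were no members.

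CLCN7, the chloride-proton exchanger of the ruffled border, had the largest clast shift, at 41.2 points for q3 against q1. TSS429871 had 0.902 FPKM in q1, 1.89 FPKM in q2 and 11.5 FPKM in q3, and TSS429872 had 1.51, 1.97 and 3.13 FPKM. The share of TSS429871 was 37.5%, 48.9% and 78.6%, with a sum of only 2.41 FPKM in q1. ATP6V0D2, a proton pump subunit typical of clasts, had TSS209421 at 49.5% in q1, 68.8% in q2 and 71.8% in q3. NFATC1, the transcription factor of clast formation, is known for a promoter that is induced by its own protein in the mouse. Its group TSS209265 held 46.0% in q1, 59.5% in q2 and 46.2% in q3, so it led in q2 only. The shift of NFATC1 was 0.218 points for q3 against q1 although the sum was 36.6 FPKM in q3 and 3.46 FPKM in q1.

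**Figure D4:**
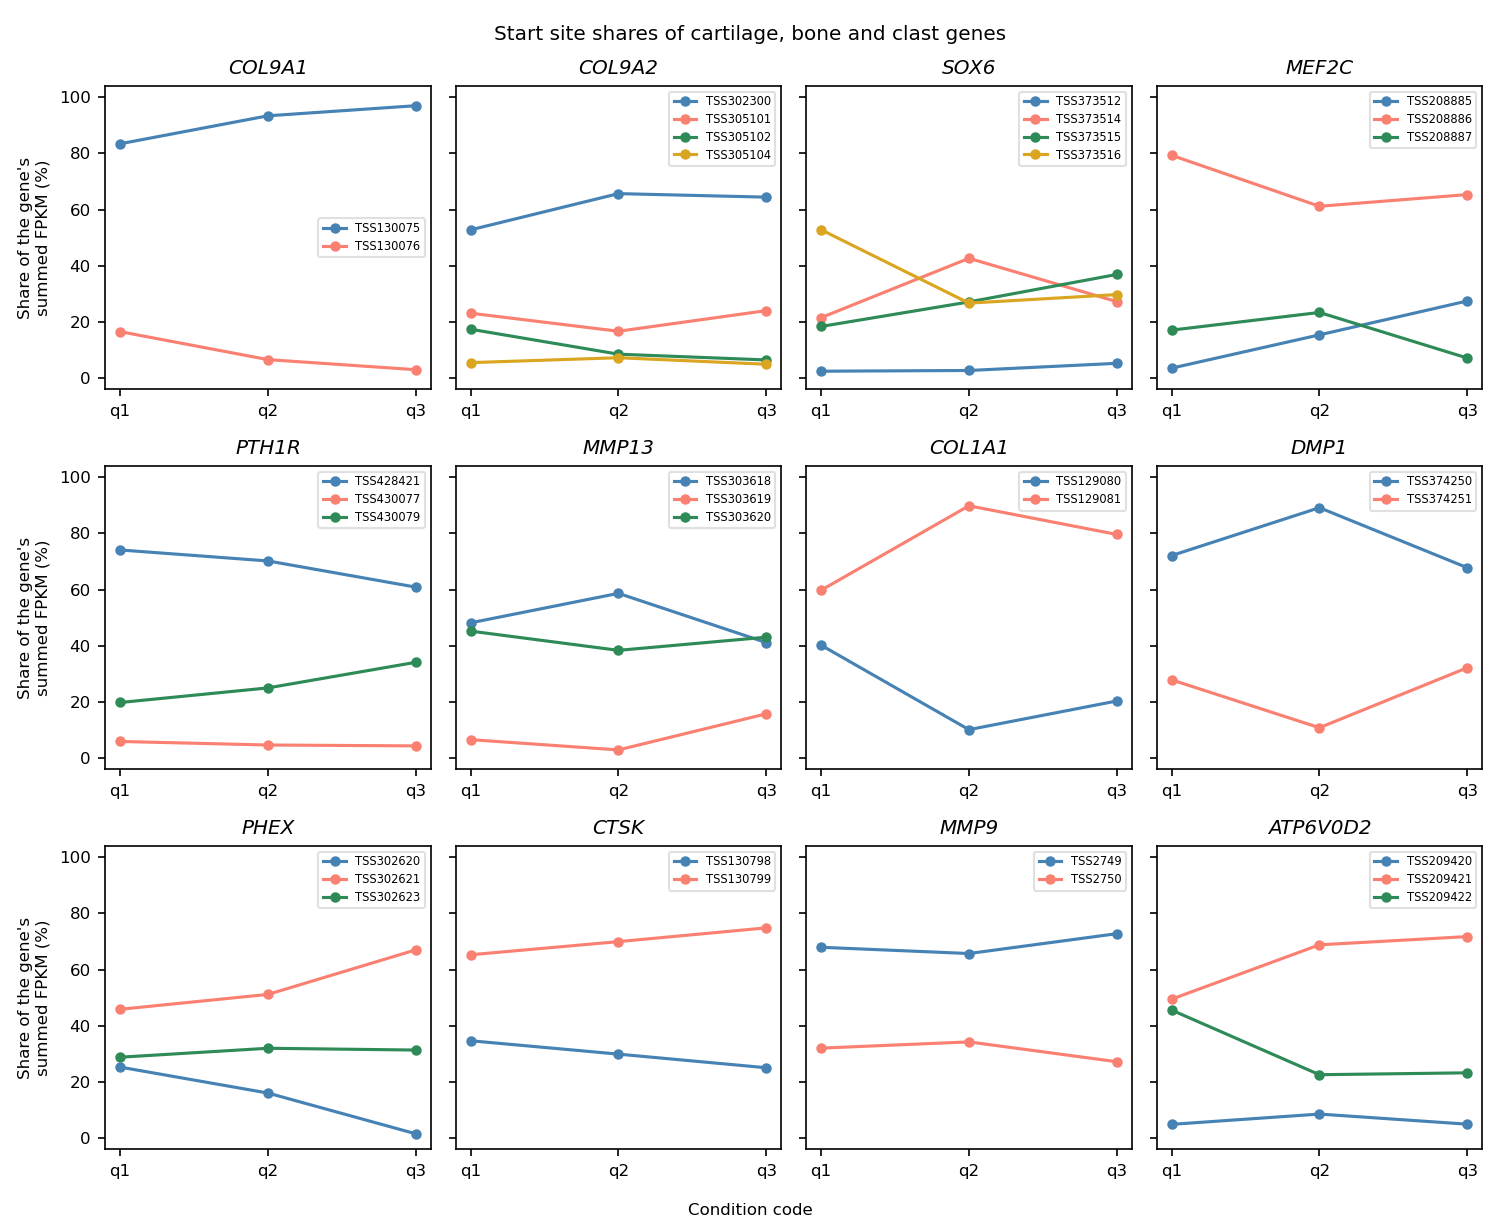
Share of the gene's summed FPKM (%, y axis) of each TSS group in q1, q2 and q3 (x axis) for 12 members of the cartilage, hypertrophy, bone and clast lists, with groups under 5% in all conditions left out. The leading group is the same in all conditions for CTSK (65.3%, 70.0% and 74.9%) and MMP9 (67.9%, 65.7% and 72.8%), while the minor group of COL9A1 is at 3.02% and a group of PHEX at 1.56% in q3.

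In the perichondrium and fibroblast list none of 8 measured members reached 20 points for q3 against q1, and the median was 7.82 points. Of these, 3 lay at 100 FPKM or more and 3 at 30 to 100 FPKM, where 3.97 and 13.1% of all members reached it. The classes of 10 to 30 FPKM and 3 to 10 FPKM held 1 each, beside 34.8 and 53.6%. COL3A1, a fibrillar collagen of soft connective tissue, had 6 listed groups, 4 of them of status OK, and TSS300522 held 58.7% in q1, 40.8% in q2 and 47.2% in q3. PRRX1, a homeobox factor of limb and face mesenchyme, had the largest shift there, at 13.0 points, with TSS124657 at 29.9% in q1, 32.4% in q2 and 42.9% in q3.

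Transforming growth factor β (TGF-β) and bone morphogenetic protein (BMP) ligands bind pairs of receptors that phosphorylate SMAD proteins. The list of 31 genes held 8 members, and 1 of 6 measured reached 20 points for q3 against q1, with a median of 7.39 points. In the class of 3 to 10 FPKM it was 1 of 3, beside 53.6% of members in that class. The count was 0 of 2 at 10 to 30 FPKM, beside 34.8%, and 0 of 1 at 30 to 100 FPKM, beside 13.1%. Among ligands, TGFB2 had nearly level shares, with TSS125007 at 54.2% in q1, 50.6% in q2 and 52.6% in q3. TGFB1, with 2 gene IDs, had TSS304643 at 54.5% in q1, 73.7% in q2 and 71.3% in q3. BMP2 could be measured in q2 against q1 only, and TSS8397 held 71.9% in q2, against 30.6% in q1. The shift of BMP2 was 51.1 points, the largest of the list for q2 against q1, with a sum of only 5.97 FPKM in q1. The receptor TGFBR1 had the largest for q3 against q1, at 43.9 points. TSS429688 had 1.06 FPKM in q1, 1.69 FPKM in q2 and 0.207 FPKM in q3, while TSS429689 had 1.24, 3.17 and 9.17 FPKM. The share of TSS429689 was 53.9%, 65.2% and 97.8%, and the locus carried another symbol. The sum of TGFBR1 was only 2.30 FPKM in q1.

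For Wnt signalling and the CCN family, 4 of 5 measured members reached 20 points for q3 against q1, with a median of 31.1 points. All 4 had sums under 10 FPKM in q1. In the class of 3 to 10 FPKM they were 3 of 3, beside 53.6% of members in that class. In the class of 10 to 30 FPKM they were 1 of 2, GSK3B, beside 34.8%. AXIN2, a scaffold of β-catenin degradation and a Wnt target, had 46.5 points for q3 against q1, with TSS129265 at 1.09 FPKM in q1, 1.62 FPKM in q2 and 3.05 FPKM in q3. A group of AXIN2 that was not tested, TSS129264, held 33.1% in q1, 1.05% in q2 and 0.768% in q3. Over groups of status OK only, the shift of AXIN2 was 26.3 points for q3 against q1 and 0.577 points for q2 against q1, where it was 32.0 points over all listed groups. LEF1, a transcription factor that acts with β-catenin, is known for 2 promoters in human and mouse, of which the internal one gives a protein without the β-catenin binding part. Its groups TSS372733, TSS372734 and TSS381475 held 21.0%, 52.5% and 26.5% in q1, 22.5%, 47.9% and 29.6% in q2, and 44.5%, 21.3% and 34.3% in q3. Which of them is the internal promoter cannot be read from the table. GSK3B, a kinase of β-catenin, had TSS302793 at 31.5% in q1, 68.2% in q2 and 60.2% in q3. The abundant CCN gene CYR61 had a shift of 2.22 points.

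The apoptosis list had 3 of 6 measured members past 20 points for q3 against q1, beside 40% of all members, with a median of 18.2 points. In the class of 3 to 10 FPKM they were 3 of 4, beside 53.6% of members in that class. With so few genes this was not read as a difference. CASP9, the initiator caspase of the mitochondrial pathway, is known in human for a short form that lacks the catalytic part. TSS301653 of CASP9 had 0.707 FPKM in q1, 2.27 FPKM in q2 and 4.53 FPKM in q3, and TSS301654 had 1.13, 0.964 and 0.529 FPKM. The share of TSS301653 was 38.4%, 70.2% and 89.6%, with a sum of only 1.84 FPKM in q1. CYCS, the cytochrome c gene, was the most abundant member of the list and had a shift of 2.02 points for q2 against q1. BCL2L11, which encodes the death-promoting protein BIM, had TSS3731 at 49.5% in q1, 66.0% in q2 and 85.5% in q3. The groups of status OK of CASP9 and of BCL2L11 differed in FPKM in opposite directions between q3 and q1, with the q2 share between them.

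Of the cytoskeletal genes, 6 of 11 measured members were past 20 points for q3 against q1, beside 40% of all members, and the median was 21.4 points. In the class of 3 to 10 FPKM they were 4 of 7, beside 53.6% of members in that class, and in the class of 30 to 100 FPKM they were 2 of 3, CAP1 and TPM4, beside 13.1%. CAP1, a protein that recycles actin monomers, had TSS302292 at 4.68 FPKM in q1, 23.9 FPKM in q2 and 97.2 FPKM in q3. Its other groups of status OK were lower in q3 than in q1, with TSS302293 at 2.39, 1.73 and 0.909 FPKM and TSS302294 at 2.29, 0.509 and 1.56 FPKM. The share of TSS302292 was 48.0%, 87.8% and 92.2%. TPM4, a tropomyosin, belongs to a family that makes long and short proteins from alternative promoters. TSS210256 had 30.3 FPKM in q1, 54.5 FPKM in q2 and 159 FPKM in q3, and TSS210257 had 18.5, 19.9 and 12.2 FPKM. TSS210257 therefore held 37.9%, 26.8% and 7.16%. CLASP1, a microtubule plus-end protein, had the largest shift of the list for q3 against q1, at 46.7 points, with 4 gene IDs and low sums of 8.40 FPKM in q3 and 7.15 FPKM in q1. This shift rested on TSS300212, which was not tested between q2 and q1 and held 3.11% in q1, 4.62% in q2 and 42.4% in q3. Over groups of status OK only, the shift of CLASP1 was 21.6 points and that of CAP1 47.5 points. LMNA, the gene of A-type lamins, was the most abundant and had a shift of 10.5 points.

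Ribosomal protein genes had small shifts, as did other members of their level. Of 17 members among the ribosomal protein genes, 13 were measured in q3, none reached 20 points in any comparison, and the medians were 1.72 points for q3 against q1, 1.31 points for q2 against q1 and 2.70 points for q3 against q2. Of the 13, 11 lay in the class of 100 FPKM or more, where 3.97% of all members reached 20 points for q3 against q1 and the median was 3.09 points. RPL7A had the largest, at 13.6 points for q3 against q1, with TSS2876 at 49.2% in q1, 51.8% in q2 and 62.8% in q3. Of 9 measured genes of oxidative phosphorylation 1 reached 20 points for q3 against q1, with a median of 9.52 points. This was ATP5G1, a subunit of the ATP synthase ring, whose group TSS125610 held 17.5% in q1, 16.5% in q2 and 36.4% in q3. COX6C, the most abundant of the list in q3, had a shift of 3.53 points. TSS125611 of ATP5G1 was at 0.000645 FPKM in q1, 24.5 FPKM in q2 and 30.8 FPKM in q3.

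Genes with alternative promoters known from human or mouse formed a list of 56, of which 23 were members. For q3 against q1, 5 of 14 measured had at least 20 points, beside 40% of all members, and the median was 14.2 points, against 15.2 points over all members. These 5 were ANK3, DST, LEF1, MYC and SOX6.

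Markers of other cells were members too. For endothelial cells 3 of 4 measured genes reached 20 points for q3 against q1, beside 40% of all members. In the class of 3 to 10 FPKM they were 3 of 3, beside 53.6% of members in that class. KDR, the main receptor for vascular endothelial growth factor, had TSS373172 at 0.361 FPKM in q1, 1.89 FPKM in q2 and 7.17 FPKM in q3, and TSS373173 at 2.28, 2.02 and 1.31 FPKM. The share of TSS373172 was 13.7%, 48.4% and 84.6%, a shift of 70.9 points. CDH5, the cadherin of endothelial junctions, had TSS4093 at 11.7%, 53.5% and 55.8%, and PECAM1, an adhesion molecule of the same cells, had TSS125858 at 65.2%, 89.4% and 96.4%. All had sums under 5 FPKM in q1. The summed level of the 7 endothelial markers listed in full was 22.2 FPKM in q1, 33.3 FPKM in q2 and 141 FPKM in q3, and none was at 0. ESAM, the most abundant, had TSS303705 at 91.1%, 65.1% and 71.8% in q1, q2 and q3.

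Among 3 measured myeloid markers, ITGB2, the beta chain of leukocyte integrins, reached 20 points for q3 against q1. TSS131275 of ITGB2 held 45.5% in q1, 70.8% in q2 and 80.7% in q3. TYROBP, an adaptor of myeloid receptors, had 80.8%, 100% and 97.6% from TSS304591. Of 2 measured genes of neurons and Schwann cells, MBP, a protein of myelin, had a shift of 24.9 points for q3 against q1, 20.6 points for q2 against q1 and 27.8 points for q3 against q2. Over groups of status OK only, its shift for q2 against q1 was 2.16 points. PMP22, another myelin protein, had 7.96, 27.5 and 19.6 points in the same comparisons, over groups that were all of status OK. The erythroid list had ALAS2, an enzyme of haem synthesis, as its only member, and it could not be measured in any comparison. No marker of skeletal muscle was a member.

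Other marker lists also had higher sums in q3, though some of their genes were lower. Of the 2027 members measured in all 3 conditions, 95% likewise had a higher sum in q3 than in q1. Their median was 4.83 FPKM in q1 and 20.6 FPKM in q3. The 8 myeloid markers listed in full summed to 37.5 FPKM in q1, 70.1 FPKM in q2 and 207 FPKM in q3, and the 16 clast genes to 1276, 4356 and 20466 FPKM in the same conditions. The 6 markers of skeletal muscle summed to 8.38 FPKM in q1, 18.6 FPKM in q2 and 45.8 FPKM in q3, with MYOG listed at 0 in q1 and MYL2 listed at 0 in q2. The 10 cartilage genes summed to 778 FPKM in q1, 432 FPKM in q2 and 1188 FPKM in q3. The levels of the marker lists differed between the same conditions as the shares, and their part in the shifts was not tested. In such bulk tissue, fewer cells of a type and less RNA per cell cannot be told apart.

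**Figure D5:**
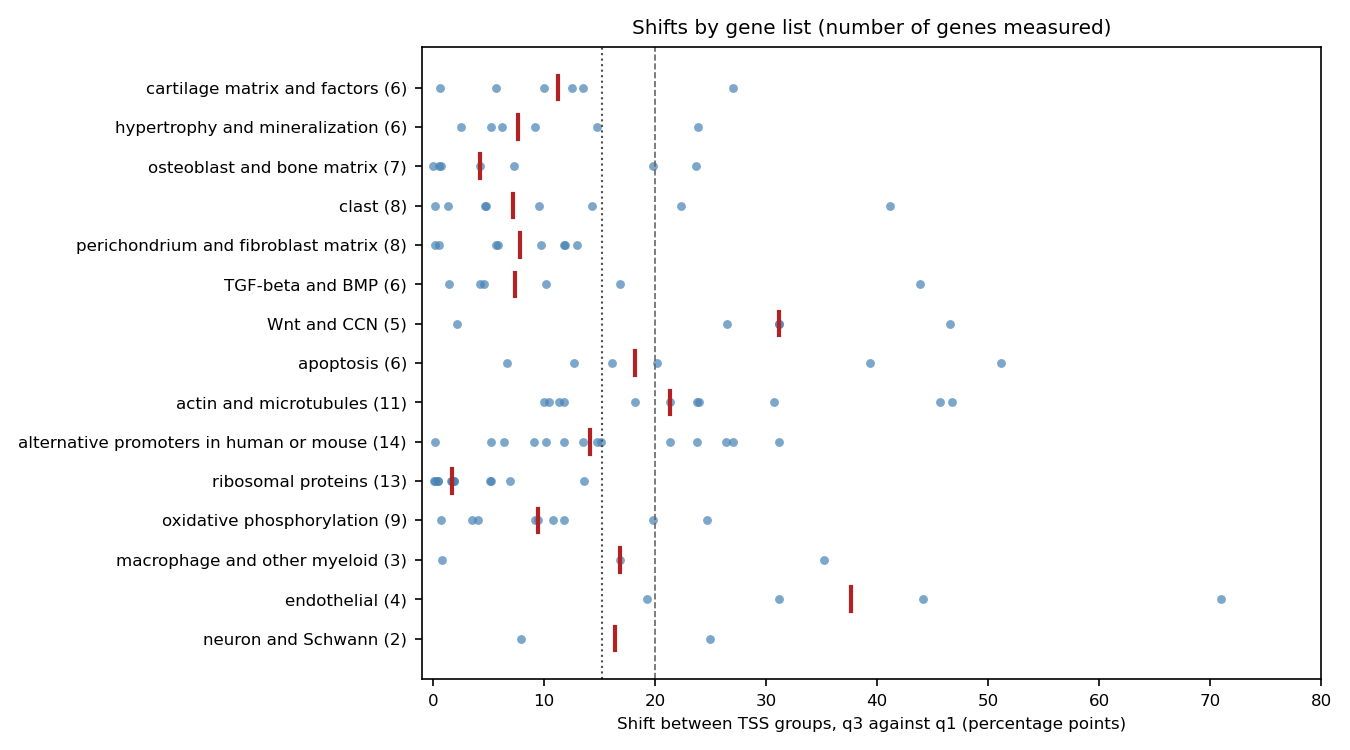
Shift of q3 against q1 in percentage points (x axis) for each measured member (points) of each gene list (y axis, with the number measured), with red bars at the list medians, a dotted line at the median of all members (15.2 points) and a dashed line at 20 points. Ribosomal protein genes lie at the low end with a median of 1.72 points, and the endothelial and Wnt lists lie highest.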

How the data were processed

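RNA-seq libraries came from 9 opossum pups, 3 per age. Tissue was laser-captured, and RNA was isolated with a PicoPure kit, amplified with a SMARTer Ultra Low Input kit and made into Nextera XT libraries for an Illumina HiSeq. Reads were processed with TopHat, Cufflinks and Cuffdiff according to the submitters' processing notes, under the Tuxedo protocol on Galaxy by the paper's methods. No source used here gives versions, genome build, annotation or scaling between libraries. The authors deposited condition means in FPKM per TSS group, made from the aligned reads, in a table of 65535 rows that lists q3 in part. Columns of p-values, q-values, fold changes and calls hold the authors' own comparisons and were not used, apart from the status that chose the members. A second, shorter table of called tests was not used. The number of unused columns of values of single samples was 0.

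Shares, shifts and leading groups were computed in Python 3.11.15 with numpy 2.4.6 and pandas 2.3.3, with figures from matplotlib 3.10.9. Genes needed a summed FPKM of at least 1 in each condition compared, no pseudocount was added, and 7 symbols that a spreadsheet had turned into dates were left out. The computation was tested on simulated shares. No test was possible without values per animal. Named genes were the 12 members with the largest shift for q3 against q1, the 8 for q2 against q1 and the 8 for q3 against q2 at a summed FPKM of at least 10, the 5 smallest with 3 or more groups of 10%, the 3 with most groups of status OK, the genes the paper names, and from each list the most abundant and the most shifted member. The rule named 63 genes. Some of them are not reported here. The members and lists were chosen with earlier results of these data known. Symbols of 2512 members matched the RefSeq table of assembly mMonDom1, which was used for names only. Lists of markers for erythroid cells and for neurons and Schwann cells gave 0 and 2 measured members for q3 against q1. Alternatives covered the groups in the sum, the filter on low FPKM, pseudocounts of 0.1 and 1 FPKM, the size called a shift and the definition of a gene.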

Additional observations from a re-analysis of the deposited data

How the results depend on the processing

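Counts and medians depended most on expression level. With a summed FPKM of at least 10 in both conditions, 61, 62 and 123 members had a shift of at least 20 points (q3 against q1, q2 against q1, q3 against q2, an order kept below), the median shifts were 7.31, 5.91 and 7.92 points, and the leading group differed in 57, 85 and 115 members. With at least 30 FPKM, a limit chosen after seeing the data, the counts were 9, 12 and 14, the medians 3.68, 3.76 and 4.76 points, and the leading group differed in 15, 24 and 32 members. These limits leave fewer genes. With 10 points as the size, 1323, 1715 and 1245 members were counted, and with 30 points 479, 510 and 340. Adding 1 FPKM to each TSS group gave 452 members for q2 against q1, and it reversed the small difference of EIF4E2 TSS127725 for q3 against q2 to 0.878 points; the cause was not tested. The same addition moved 39 of 178 share changes of named genes beyond the set tolerance without a change of sign, and 0.1 FPKM moved 2. Counts stayed within 1.5 times of the values reported when only groups of status OK were summed, without the filter, with 0.1 FPKM added, for genes in 1 place, with 1 gene ID, with no other symbol at the locus, listed in full for q3 or of status OK in q3 against q1 too. No paired analysis was possible because the table holds condition means without replicates, and leaving out a replicate could not be run for the same reason. Without counts or depth, no error of a share could be given.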
